A study of Mus musculus with 22 samples.

Results

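Expression of 47 genes of BMP and TGF-beta signalling was followed in mouse choroid plexus (ChP), the epithelial tissue of the brain ventricles that secretes cerebrospinal fluid, among 33984 genes measured by RNA sequencing. The members form a list of gene names, in which the rule uses no measured level: 6 BMP ligands, 3 TGF-beta ligands, 4 activin and GDF ligands, 6 type I receptors, 5 type II and III receptors, 6 extracellular inhibitors and modulators, 4 latent TGF-beta binding proteins, 6 receptor and common Smads, 2 inhibitory Smads and 5 targets. The series holds 7 groups of 2 pools each, A and B, from mice in which the homeobox gene Otx2, a regulator of ChP, was altered or left intact.

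In the conditional model, 3-month-old Otx2 lox/lox mice (strain S129 in the labels) received either Cre-Tat recombinant protein, a recombinase joined to a peptide that carries it into cells, or vehicle. Injections were made into the lateral ventricles, and ChP of the lateral ventricles (LV) and of the fourth ventricle (4V) was dissected apart 15 days later. Pools held 5 mice after Cre-Tat and 4 after vehicle, and all of these mice, controls included, carry the floxed alleles and were injected. In the constitutive model (strain B6D2), 4V ChP was taken at the same age, as far as the study's methods give it, from mice labelled wildtype, Otx2(+/-), in which 1 copy of Otx2 is lost in every cell and throughout life, and Otx2(+/AA), an allele that the labels name without describing it. All libraries are from pooled tissue of several animals, so that differences between mice are not seen. In such bulk samples, fewer cells of a type and less RNA per cell cannot be told apart.

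Ligands of this family are secreted dimers that bring together type I and type II receptor kinases at the cell surface. BMP-type ligands lead to phosphorylation of Smad1, Smad5 and Smad9, TGF-beta and activin ligands to that of Smad2 and Smad3. Both sets act with Smad4 on target genes, of which the Id genes are known mainly as BMP targets. Secreted antagonists, latent binding proteins and the inhibitory Smads restrain the signal, and BMP signalling from the dorsal midline is known for its part in specifying the ChP during development.

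Several facts of the data bear on each of the comparisons. Deposited files of the conditional model number 16, and 14 of them carry a library number that GEO's labels give to a different pool than the one they are listed under. They were therefore joined to pools by library number. Files that share a library number differed by a chi-square of 1 to 1.041 per degree of freedom, whereas files paired as listed differed by 21.08 to 37.28. Pool totals were 22750019 to 50088408 counts over all transcripts. Otx2 counted over its whole transcript went against the labels. In LV it stood at 391 and 476 CPM (counts scaled to library size, with TMM factors) in the vehicle pools and at 1240 and 1020 in the Cre-Tat pools, in 4V at 383 and 392 against 1200 and 1210, and in the constitutive model at 362 and 303 in wildtype, 1030 and 884 in Otx2(+/-) and 339 and 353 in Otx2(+/AA). Counts per transcript do not separate the deleted exon from the others, so this is no check of the deletion, and reads over single exons were not analysed here. The study's methods state that lowered Otx2 was checked by qPCR before Cre-Tat samples were pooled. Groups are named by their labels throughout, and each direction given below rests on those labels. The 2 models were sequenced apart, and the groups of a model together are called a run below. They also differ in strain and in injection, so that model, strain, injection and sequencing cannot be told apart.

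Marker genes of ChP epithelium, among them the transthyretin gene Ttr, were abundant in every pool, with summed levels of 85100 to 233000 CPM over 7 genes. The epithelial sum in the Cre-Tat pools was 0.625 times that of vehicle in LV, where 2 of 7 markers fell. In 4V it was 0.456 times, where 7 of 7 fell. It was 0.664 times wildtype in Otx2(+/-), where 3 of 7 fell. Ttr made up most of this sum, with a mean of 144000 CPM in wildtype, and was 0.578 times wildtype in Otx2(+/-). The markers not called there stood at 0.829 (Kl), 0.923 (Enpp2), 1.03 (Clic6) and 1.08 times wildtype (Kcne2). In LV, Ttr was 0.62 times vehicle and not called (edgeR adjusted p = 0.077). After Cre-Tat, macrophage markers moved the other way from the epithelial sum. They reached 1.58 times the vehicle sum in LV, where 2 of 7 rose, and 1.9 times in 4V, where 5 of 7 rose. Fibroblast markers summed to 1.39 times wildtype in Otx2(+/-), where 2 of 6 tested rose. In the same comparison neuron and glia markers summed to 1.46 times wildtype, where 1 of 6 tested rose (Aqp4, 3.35 times), and macrophage markers to 1.25 times, where 1 of 7 rose (Mrc1, 1.57 times). B and plasma cell markers reached 62.5 CPM in Cre-Tat LV pool A and 19.3 in Cre-Tat 4V pool A against at most 5.69 in the other pools. In Otx2(+/AA) no marker was called. The sums there were 0.8 times wildtype for epithelial, 0.929 for fibroblast, 1.14 for neuron and glia and 1.32 for macrophage markers. No marker of the 8 lists was at 0 in all pools. The part of these cell types in the values given for the members was not tested.

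**Figure D1:**
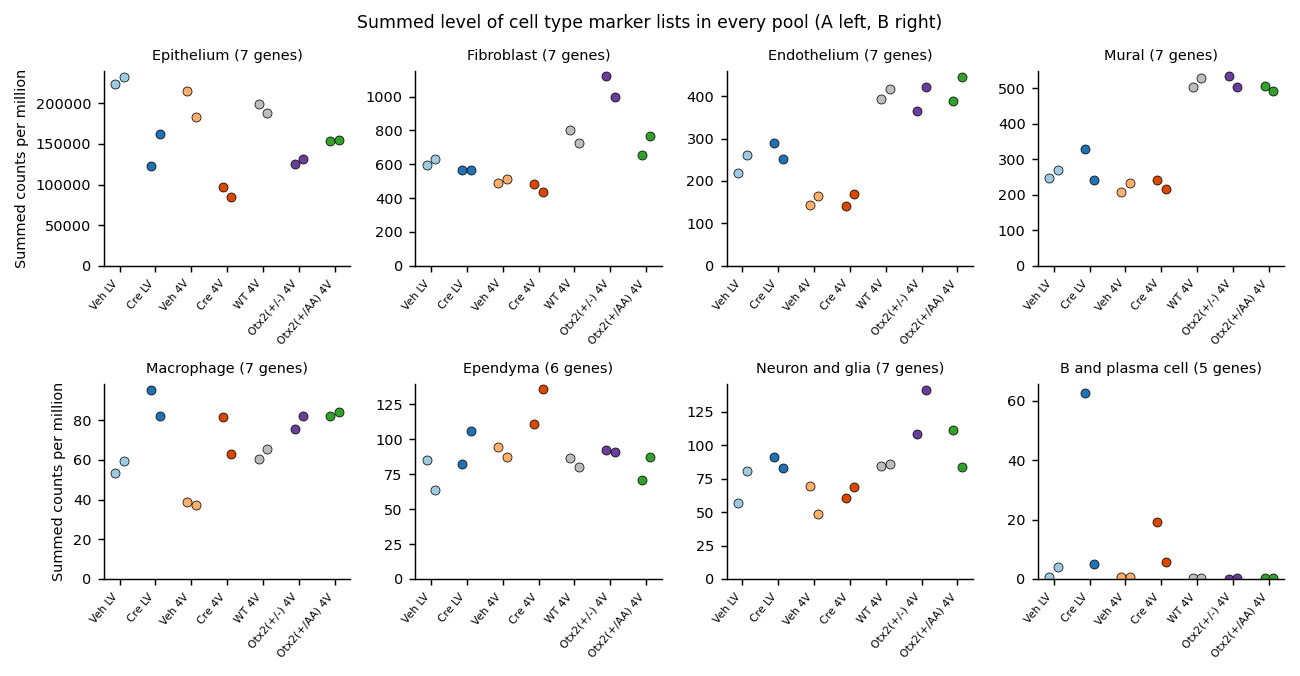
Summed level of 8 lists of cell type markers in every pool, in CPM with TMM factors; each panel is a list, each point a pool (A left, B right). The epithelial sum was lowest in the Cre-Tat 4V pools, at 96600 and 85100, and macrophage sums were higher in the Cre-Tat pools than in the vehicle pools of the same ventricle.

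Promoter sequences from RefSeq (GRCm38.p6) were found for 35 of the 47 members, as 43 windows of 250 bases before to 50 bases after a transcription start. Both strands were searched for TAATCC, the core bound by OTX2-type homeodomains, and for the SMAD elements GTCTAGAC and GGCGCC, which read the same on both strands. TAATCC was present in 7.06% of all 32851 windows and in 4 of the members' windows, those of Ltbp1, Ltbp2, Tgfb2 and Tgfbr1. GTCTAGAC was present in 0.213% of all windows and in that of Smad6, and GGCGCC in 11.9% of all windows and in 15 of the 43, from 13 members. The 250 bases before the start are shown, in the direction of the gene, for Tgfb2 (chr1:186705990-186706239, minus strand), which was called in both ventricles, for Gdf11 (chr10:128891719-128891968, minus strand), which was called in both models, and for Grem1 (chr2:113758649-113758898, minus strand), which had no counts in the vehicle LV pools. Capitals mark TAATCC in Tgfb2, starting at base -83 from the transcription start, and GGCGCC in Grem1, starting at base -78, and the Gdf11 stretch holds none of the 3 motifs. In Tgfb2, 167 of these bases also lie in an exon of the antisense gene Gm29491.
Tgfb2: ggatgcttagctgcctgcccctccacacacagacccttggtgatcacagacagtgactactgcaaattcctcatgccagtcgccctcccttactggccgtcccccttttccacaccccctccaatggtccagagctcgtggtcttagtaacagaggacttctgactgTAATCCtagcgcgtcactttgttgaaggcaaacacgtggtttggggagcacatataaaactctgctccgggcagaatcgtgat
Gdf11: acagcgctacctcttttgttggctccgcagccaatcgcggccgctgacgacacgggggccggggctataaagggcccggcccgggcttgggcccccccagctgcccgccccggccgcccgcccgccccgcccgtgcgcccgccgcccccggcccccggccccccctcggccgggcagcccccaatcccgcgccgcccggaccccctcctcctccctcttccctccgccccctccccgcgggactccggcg
Grem1: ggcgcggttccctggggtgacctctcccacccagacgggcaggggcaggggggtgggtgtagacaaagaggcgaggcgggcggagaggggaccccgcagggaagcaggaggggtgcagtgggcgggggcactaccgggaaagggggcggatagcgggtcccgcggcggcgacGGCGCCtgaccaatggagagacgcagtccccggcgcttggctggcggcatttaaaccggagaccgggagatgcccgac

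Of the 47 members, 40 had a mean level of at least 1 CPM over the 14 pools. Bmp3, Inhba, Fst and Ltbp2 passed the filter on low counts in none of the 5 comparisons of groups, with at most 11 counts (0.562 CPM) in any pool, so that their changes were not detectable at this depth. Per kb of transcript, the ligand with the highest level in the vehicle pools was Tgfb2 in LV, at 83.8 CPM per kb, followed by Bmp7 at 64.8 and Bmp6 at 38.5. In vehicle 4V pools the levels of Tgfb2 (48.4 CPM per kb) and Bmp7 (45.8) were close to each other, with Bmp6 at 28.9, Gdf11 at 15.4 and Bmp4 at 14. Wildtype 4V pools had 37.2 CPM per kb of Bmp6, 33.7 of Tgfb2 and 31.3 of Bmp7. Tgfb1, in contrast, did not exceed 0.51 CPM per kb in any group.

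Among receptors, the coreceptor Tgfbr3 (betaglycan) ranged from 37.1 to 79 CPM per kb over the 7 groups, the BMP receptor Bmpr1a from 26.9 to 35.6 and the TGF-beta receptor Tgfbr2 from 19.6 to 23.7. Bmpr1b, another type I receptor of BMPs, stayed at 0.805 to 1.98 CPM per kb. Fstl1 had the highest level per kb of the extracellular modulators (9.35 to 24.3), Ltbp3 that of the latent binding proteins (13.5 to 22) and Smad4 that of the receptor and common Smads (14.7 to 19.1). By the mean of the 14 pools, Smad6 led the inhibitory Smads (5.93 CPM per kb, Smad7 5.3) and Id3 the targets (58.3). Smad7 stood above Smad6 in vehicle 4V, however, and Tgfbi above Id3 in vehicle LV. Each level rests on 1 transcript, which held 95.9% of the summed transcript counts for Smad6, 41.5% for Smad7 and 29.8% for Chrd. The order of genes can therefore depend on that choice. Of the BMP antagonists among the members, Nog was at most at 1.16, Chrd at 0.29 and Grem1 at 0.245 CPM per kb in any group. Antagonist RNA was not scarce in general. Sostdc1, an antagonist outside the list, ranged from 102 to 260 CPM per kb over the groups, above each ligand among the members. Levels of Bmp5 are uncertain, because 49.1% of its transcript is overlapped by Gm26903 on the opposite strand and the strand used in counting is not stated. Overlaps of this kind cover 12.4% of Tgfb3 and 6.23% of Bmp6.

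**Figure D2:**
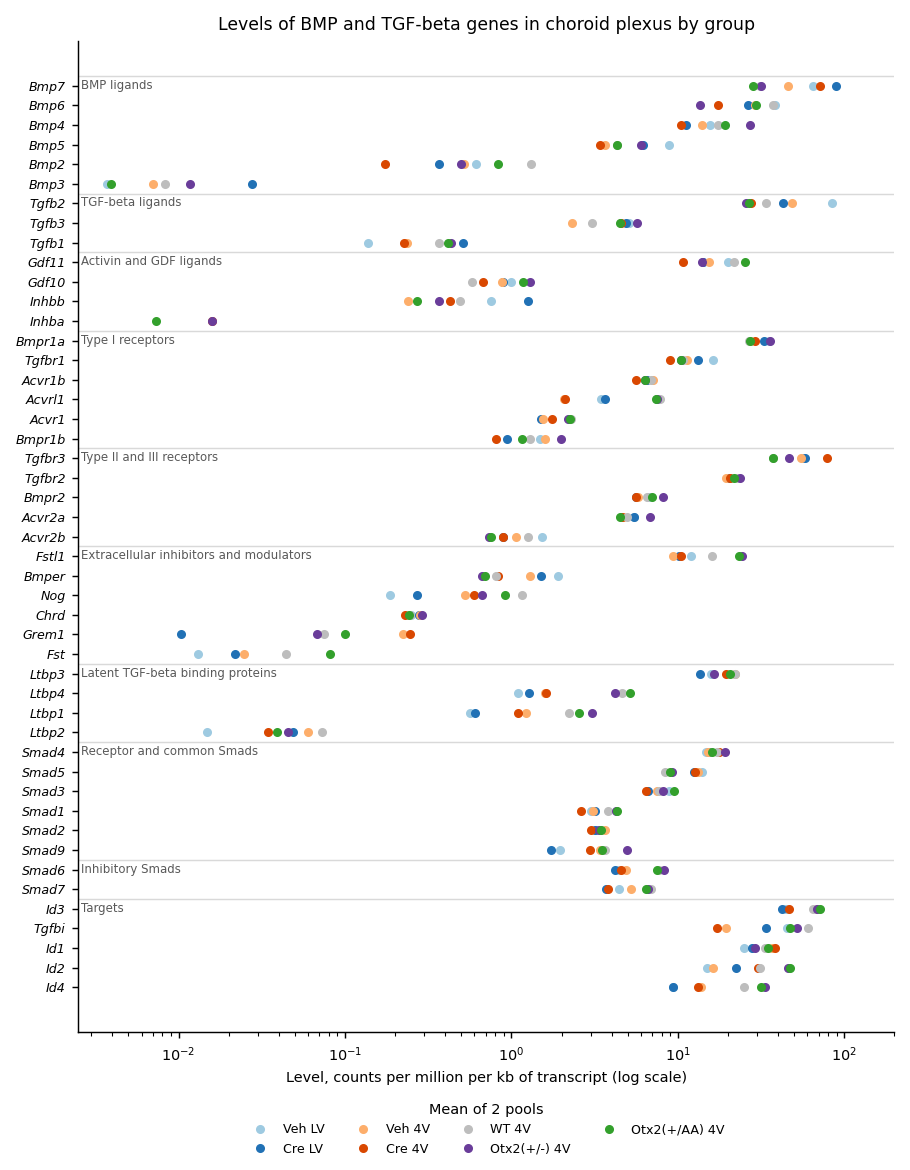
Mean level of each member in the 7 groups, in CPM per kb of transcript on a log axis; each point is the mean of 2 pools, rows are ordered by role and by level, and means of 0 are not drawn. Tgfb2 in the vehicle LV group stands at 83.8, while Bmp3, Inhba, Fst and Ltbp2 stay below 0.1 in each group.

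In LV ChP, pools labelled Cre-Tat were set against those labelled vehicle to ask which members change when Otx2 is targeted in the adult tissue. Tgfb2, a TGF-beta ligand (chr1:186622792-186705989, minus strand, GRCm38), was the single member that edgeR called. It stood at 417 and 441 CPM in the vehicle pools and at 221 and 216 in the Cre-Tat pools. The pools of either group lay close together and far from those of the other. The log2 fold change was -0.95 (SE 0.16, edgeR adjusted p = 0.0042), and it lay between -0.99 and -0.91 when each of the 4 pools was left out. Thus 1 of 42 members tested was called (2.38%), against 3.24% of all 15002 genes tested (2.21% higher and 1.03% lower). The median log2 fold change of the members was -0.07 against 0.0044 over all genes.

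Other members came near the threshold in LV without passing it after adjustment. Bmp6, a BMP ligand (chr13:38345107-38500302, plus strand), stood at 133 and 144 CPM in the vehicle pools and 87.1 and 102 in the Cre-Tat pools (log2 fold change -0.52, SE 0.16, edgeR adjusted p = 0.11), and it was called by DESeq2, in a joint fit of all groups of the run and without Cre-Tat pool B. Bmp7, another BMP ligand (chr2:172868012-172940321, minus strand), stood at 212 and 263 CPM against 340 and 314 (0.48, SE 0.17, edgeR adjusted p = 0.17). The groups did not overlap for either gene, which with 2 pools a group does not show a change by itself. For Bmp7, vehicle pool B lay as far from vehicle pool A as from the nearest Cre-Tat pool. Id2, an inhibitor of basic helix-loop-helix factors and a BMP target, stood at 19 and 18.8 CPM against 31.8 and 24.8 (0.60, SE 0.18, edgeR adjusted p = 0.087) and was called without Cre-Tat pool B or with no filter on low counts. The 21 members that were tested here but called in none of the 5 comparisons ranged from -0.74 (Acvr2b) to 1.90 on the log2 scale. The upper end is Tgfb1, at 0.194 and 0.403 CPM against 1.17 and 1.05 (SE 0.64, edgeR adjusted p = 0.15).

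In 4V ChP, with the pools labelled in the same way, 9 of 42 members tested were called after Cre-Tat (21.4%), 4 higher and 5 lower, against 10.7% of all 14550 genes tested (5.7% higher and 4.98% lower). The median log2 fold change of the members was -0.12, and that of all genes 0.0061. Calls fell on 5 ligands, 2 receptors and 2 targets, and on none of the extracellular inhibitors, latent binding proteins or Smads.

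The ligands Bmp6, Tgfb2 and Gdf11 fell and the ligands Bmp7 and Tgfb3 rose in 4V. Tgfb2 stood at 247 and 248 CPM in the vehicle pools and at 134 and 149 in the Cre-Tat pools. Its log2 fold change was -0.80 (SE 0.13, edgeR adjusted p = 0.00065), so that the Cre-Tat mean was 0.573 times that of vehicle. Bmp6 stood at 104 and 103 CPM against 61.7 and 64.2, a log2 fold change of -0.71 (SE 0.13, edgeR adjusted p = 0.0014). Both ligands were thus lower in both Cre-Tat pools, and both calls were kept with each pool left out. Gdf11, an activin-type ligand (chr10:128882295-128891718, minus strand), stood at 68.1 and 56.8 CPM against 40.7 and 45.9 (-0.52, SE 0.14, edgeR adjusted p = 0.022). The groups did not overlap, but the call was lost without vehicle pool A (edgeR adjusted p = 0.37) or Cre-Tat pool A (0.063), and with scaling by total counts.

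Tgfb3 (chr12:86056745-86079041, minus strand) stood at 7.57 and 8.01 CPM in the vehicle pools and at 15.2 and 15.7 in the Cre-Tat pools of 4V. The mean was 1.98 times higher (log2 fold change 1.00, SE 0.18, edgeR adjusted p = 0.0013), and the call was kept with each pool left out. Bmp7 stood at 169 and 166 CPM in the vehicle pools and at 263 ± 8.23 (SD, n = 2) after Cre-Tat, a log2 fold change of 0.65 (SE 0.13, edgeR adjusted p = 0.0036). Both Cre-Tat pools were higher for both genes, although the adjusted p of Bmp7 was 0.051 without vehicle pool B.

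Receptor genes changed in opposite directions in 4V. Bmpr1b, a type I receptor of BMPs, stood at 7.79 and 9.29 CPM in the vehicle pools and at 3.08 and 5.54 in the Cre-Tat pools, a log2 fold change of -0.97 (SE 0.26, edgeR adjusted p = 0.023). Tgfbr3, the coreceptor that presents TGF-beta to its receptors, stood at 331 and 342 CPM against 420 and 541 (0.52, SE 0.15, edgeR adjusted p = 0.033). The spread between the Cre-Tat pools was wide for both. The call of Bmpr1b was lost without vehicle pool B (edgeR adjusted p = 0.058) or Cre-Tat pool A (0.14), and that of Tgfbr3 without vehicle pool A (0.22), vehicle pool B (0.15) or Cre-Tat pool B (0.23). With counts summed over all transcripts of a gene, Bmpr1b, Tgfbr3 and Gdf11 were not called.

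The 2 targets called in 4V belong to the same family of inhibitors of basic helix-loop-helix factors and moved apart. Id2 stood at 21.2 and 20.2 CPM in the vehicle pools and at 42.6 and 34.6 in the Cre-Tat pools, a log2 fold change of 0.90 (SE 0.16, edgeR adjusted p = 0.00088). Id3 stood at 90 and 85.4 CPM against 67.2 and 52.4 (-0.54, SE 0.15, edgeR adjusted p = 0.021). Groups did not overlap for either, and the call of Id2 was kept with each pool left out, whereas that of Id3 was lost without vehicle pool A (edgeR adjusted p = 0.14) or Cre-Tat pool B (0.16) and with scaling by total counts. Id1 stood at 49.5 and 35.6 CPM against 54.6 and 34.7, and Id4 at 57.9 and 47.9 against 56.4 and 45.2, with pools of the 2 groups overlapping.

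Of the members that were not called, Bmp2 came closest in 4V, at 2.57 and 1.1 CPM in the vehicle pools and 0.432 and 0.798 in the Cre-Tat pools (log2 fold change -1.58, SE 0.51, edgeR adjusted p = 0.059). It was called without vehicle pool B or without Cre-Tat pool B. The inhibitory Smad7 stood at 20.9 and 23.7 CPM against 16 and 16.8 (-0.44, SE 0.16, edgeR adjusted p = 0.1). The 20 members tested in this comparison but called in none of the 5 ranged from -0.64 (Bmper) to 0.23 (Smad4) on the log2 scale.

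**Figure D3:**
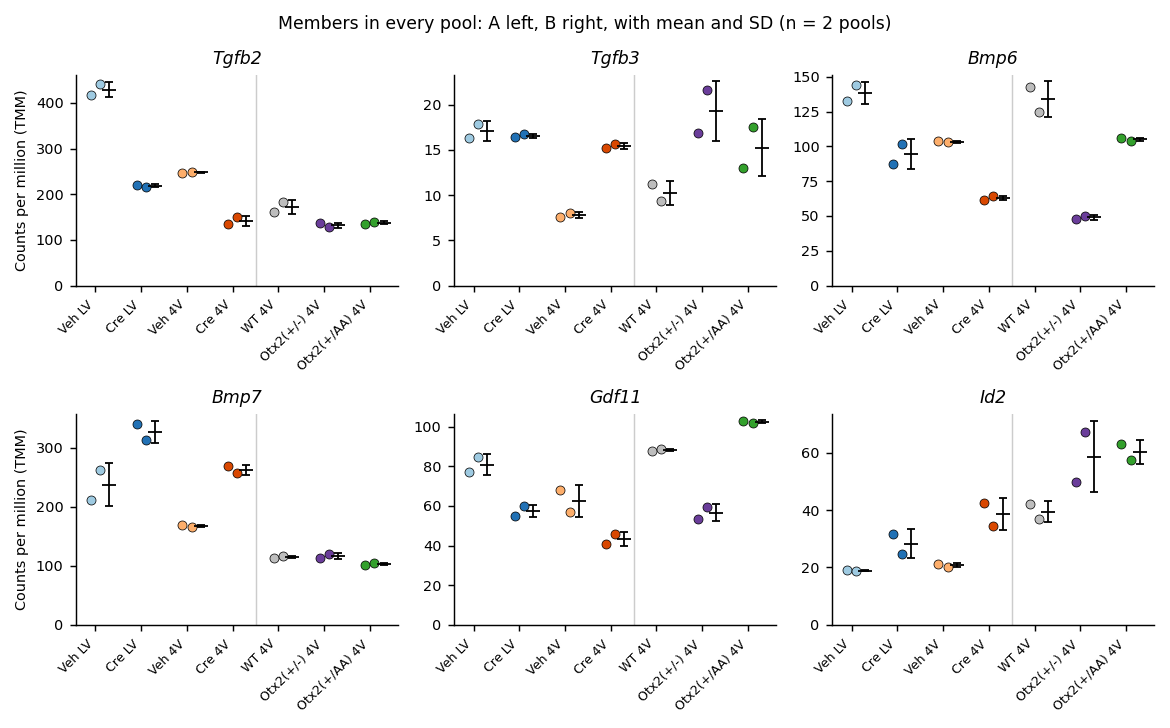
Level of 6 members in every pool, in CPM with TMM factors; points are pools (A left, B right), bars to their right give the mean and SD of 2 pools, and the grey line parts the models. Tgfb2 lies lower in the Cre-Tat pools of both ventricles, Bmp6 is lowest in the Otx2(+/-) pools at 47.7 and 50.3, and Tgfb3 is lowest in the vehicle 4V pools at 7.57 and 8.01.

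Whether Cre-Tat acted differently in LV and 4V was tested over the 8 pools of the conditional model. None of 43 members tested passed the threshold with edgeR or with DESeq2. Of all 15565 genes tested, 0.00642% were called. An unadjusted p under 0.05 was found for 3 members, a count that shows no excess, because the share of all genes at that threshold is not given. The largest departure among members with such a p was Tgfb3, whose log2 fold change was -0.02 in LV (16.3 and 17.9 CPM against 16.4 and 16.7) and 1.00 in 4V. This difference was -1.02 (SE 0.23, unadjusted p = 0.00049, edgeR adjusted p = 0.72). For Tgfb2 the difference was -0.15 (SE 0.19), for Bmp7 -0.17 (SE 0.21), for Bmp6 0.19 (SE 0.20) and for Id2 -0.29 (SE 0.23), so that calls in 4V alone do not show an effect particular to 4V.

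In the constitutive model, pools labelled Otx2(+/-) were set against wildtype in 4V to ask which members differ when a copy of Otx2 is missing from the start. Of 42 members tested, 5 were called (11.9%), 2 higher and 3 lower, against 3.53% of all 14573 genes (1.78% higher and 1.75% lower). The median log2 fold change of the members was 0.08, against -0.0007 for all genes. The 5 genes are 4 ligands and the secreted modulator Fstl1.

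Bmp6 stood at 143 and 125 CPM in the wildtype pools and at 47.7 and 50.3 in the Otx2(+/-) pools. The mean was 0.366 times wildtype (log2 fold change -1.45, SE 0.12, edgeR adjusted p = 0.00063), and with each pool left out the value stayed between -1.55 and -1.35. Gdf11 stood at 87.8 and 88.7 CPM against 53.6 and 59.5 (-0.64, SE 0.11, edgeR adjusted p = 0.019), and this call was also kept with each pool left out. Both ligands were clearly apart between the groups. Bmp2, a BMP ligand of low level, stood at 3.98 and 5.34 CPM against 1.93 and 1.59 (-1.40, SE 0.28, edgeR adjusted p = 0.034). This call rested on the pools used, since the adjusted p was 0.053 without wildtype pool B, 0.057 without Otx2(+/-) pool A and 0.069 without Otx2(+/-) pool B.

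Tgfb3 rose from 11.2 and 9.33 CPM in the wildtype pools to 16.9 and 21.6 in the Otx2(+/-) pools (log2 fold change 0.90, SE 0.18, edgeR adjusted p = 0.032). The call was lost without Otx2(+/-) pool B (edgeR adjusted p = 0.07), and both Bmp2 and Tgfb3 lost theirs with counts summed over all transcripts of a gene. Fstl1, a secreted follistatin-like protein that is also made by fibroblasts, stood at 59.8 and 61.4 CPM against 94.8 and 89.5 (0.61, SE 0.11, edgeR adjusted p = 0.02), with an adjusted p of 0.056 without wildtype pool A. Groups did not overlap for either gene. The summed fibroblast markers stood at 801 and 725 CPM in the wildtype pools and at 1120 and 1000 in the Otx2(+/-) pools. In the Otx2(+/AA) pools they stood at 653 and 765 CPM, with Fstl1 at 94.2 and 81.8. Their part in the value of Fstl1 was not tested.

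Tgfb2 and Bmp7, called in 4V after Cre-Tat, did not pass the threshold in Otx2(+/-). Tgfb2 stood at 162 and 183 CPM in wildtype and 136 and 128 in Otx2(+/-) (log2 fold change -0.39, SE 0.12, edgeR adjusted p = 0.13), and Bmp7 at 114 and 116 against 113 and 120 (0.02, SE 0.11, edgeR adjusted p = 0.96). Tgfb2 pools did not overlap, which with 2 pools a group does not show a change by itself, whereas Bmp7 pools did. Id2 stood at 42.1 and 36.8 CPM against 49.9 and 67.3 (0.57, SE 0.16, edgeR adjusted p = 0.099), and Gdf10, a BMP3-like ligand, at 3.87 and 2.14 against 6.81 and 6.71 (1.16, SE 0.28, edgeR adjusted p = 0.064). Both were called without wildtype pool A. The 21 members tested here but called in none of the 5 comparisons ranged from -0.81 (Nog) to 1.16 (Gdf10).

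For Otx2(+/AA) against the same wildtype pools, edgeR called none of 42 members, against 0.345% of all 14494 genes (0.172% in each direction). DESeq2 called 1, Id2, against 0.842% of all genes. An unadjusted p under 0.05 was found for 11 members. The share of all genes at that threshold is not given, so this count shows no excess among the members. Id2 stood at 63.1 and 57.3 CPM in the Otx2(+/AA) pools, above both wildtype pools (log2 fold change 0.61, SE 0.13, edgeR adjusted p = 0.086). Fstl1 stood at 94.2 and 81.8 CPM, also above both (0.54, SE 0.13, edgeR adjusted p = 0.12), and was called without Otx2(+/AA) pool B. Gdf10 stood at 5.54 and 6.6 CPM (1.01, SE 0.29, edgeR adjusted p = 0.2) and was called without wildtype pool A. Tgfb2, at 135 and 140 CPM, lay below both wildtype pools (-0.33, SE 0.13, edgeR adjusted p = 0.43). With 2 pools a group, values beyond both wildtype pools do not show a change by themselves. The median log2 fold change of the members was -0.02, against -0.0057 over all genes.

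Both constitutive mutants share their wildtype pools, and they were therefore also compared with each other. Of 42 members, 2 were called (4.76%), both lower in Otx2(+/-), against 2.7% of all 14578 genes (1.37% higher and 1.33% lower). Bmp6, at 47.7 and 50.3 CPM in Otx2(+/-), stood at 106 and 104 in Otx2(+/AA), a log2 difference of -1.11 (SE 0.14, edgeR adjusted p = 0.0011). Gdf11 stood at 103 and 102 CPM in Otx2(+/AA), above both wildtype pools, against 53.6 and 59.5 in Otx2(+/-) (-0.87, SE 0.14, edgeR adjusted p = 0.0056). Both calls were kept with each pool left out.

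The 4V effects of the 2 models, which also differ in strain, injection and sequencing, were compared over 8 pools. The value is the effect of Cre-Tat minus that of Otx2(+/-). Of 43 members tested, 2 were called (4.65%), against 1.64% of all 15327 genes (0.783% higher and 0.861% lower). Bmp6 fell less after Cre-Tat than in Otx2(+/-), a difference of 0.72 on the log2 scale (SE 0.17, edgeR adjusted p = 0.048). This call was lost in each of the 8 fits without 1 pool, with adjusted p of 0.071 to 0.19. Bmpr1b, lower after Cre-Tat, stood at 6.75 and 7.14 CPM in wildtype and 11.8 and 9.38 in Otx2(+/-) (0.61, SE 0.18, edgeR adjusted p = 0.12). Its difference was -1.59 (SE 0.35, edgeR adjusted p = 0.041) and stayed called in 2 of the 8 fits, those without Cre-Tat pool B or Otx2(+/-) pool B. With counts summed over all transcripts of a gene, neither was called. For Tgfb3 the effects differed by 0.08 (SE 0.25) and for Gdf11 by 0.11 (SE 0.18).

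**Figure D4:**
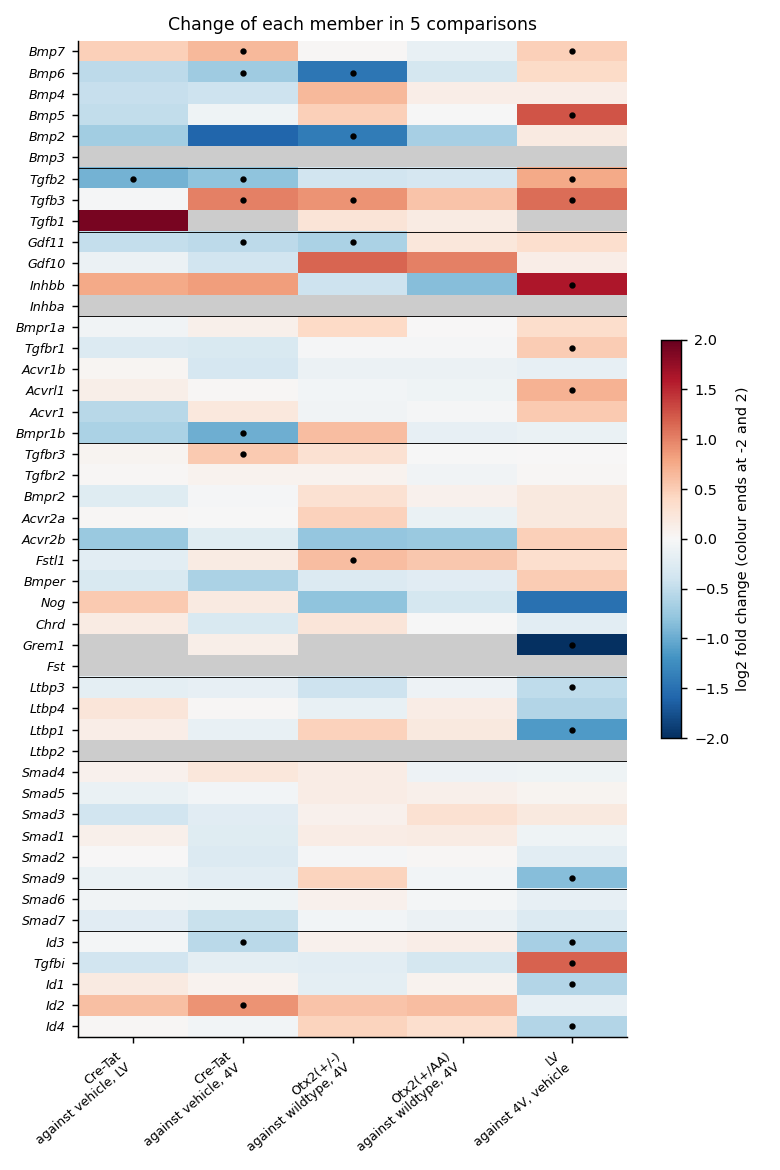
Log2 fold change of each member (rows, by role) in the 5 comparisons of groups (columns), red for higher and blue for lower in the group named first; black dots mark an edgeR adjusted p under 0.05 and grey cells were not tested. Calls numbered 1, 9, 5, 0 and 15 from left to right, and the Grem1 value between ventricles lies beyond the end of the colour scale.

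Vehicle pools of LV and 4V were compared to see how the members differ between the ventricles without Cre-Tat. They are also the controls of the Cre-Tat comparisons. Both plexuses came from the same set of injected mice, so that LV and 4V pools may hold the same animals, but the sources used here do not tie an LV pool to a 4V pool. Of 42 members tested, 15 were called (35.7%), 8 higher and 7 lower in LV, against 7.44% of all 14561 genes (3.46% higher and 3.98% lower). Grem1, among the 7, passed the filter on low counts through its 4V pools alone. The median log2 fold change of the members was 0.095, against 0.0055 for all genes. Ligands and type I receptors that were called were higher in LV, while the called latent binding proteins, the Smad and the Id targets were higher in 4V. Endothelial markers summed to 1.56 times as much in LV as in 4V, with 3 of 7 called higher, macrophage markers to 1.48 times (1 of 7), fibroblast markers to 1.22 times (1 of 6) and epithelial markers to 1.15 times (none of 7), and their part in the values was not tested.

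Among ligands, Tgfb2 stood at 417 and 441 CPM in LV and 247 and 248 in 4V (log2 fold change 0.76, SE 0.12, edgeR adjusted p = 0.0014). Tgfb3 stood at 16.3 and 17.9 CPM against 7.57 and 8.01 (1.11, SE 0.17, edgeR adjusted p = 0.0015). Bmp5, with the overlap named above, stood at 32.1 and 35.9 CPM against 13 and 15 (1.25, SE 0.15, edgeR adjusted p = 0.00015). For these 3 ligands LV pools were far above 4V pools, and the calls were kept with each pool left out. Bmp7 stood at 212 and 263 CPM against 169 and 166 (0.47, SE 0.13, edgeR adjusted p = 0.04). Inhbb, the beta B subunit of activin, stood at 2.66 and 3.78 CPM against 1.03 and 1.01 (1.62, SE 0.39, edgeR adjusted p = 0.023). The calls of Bmp7 and Inhbb were kept in 1 of 4 fits without a pool, that without LV pool A, with adjusted p of up to 0.32 and 0.13 in the others.

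Of the receptors, Acvrl1, a type I receptor known mainly from endothelium, stood at 11.7 and 13.3 CPM in LV and 6.61 and 8.56 in 4V (log2 fold change 0.70, SE 0.19, edgeR adjusted p = 0.045). Tgfbr1, the type I receptor of TGF-beta, stood at 88.6 and 98 CPM against 63.2 and 66.4 (0.50, SE 0.12, edgeR adjusted p = 0.021). Groups did not overlap, but both calls were kept only in the fit without LV pool A, with adjusted p of up to 0.23 and 0.11 in those without LV pool B or either 4V pool. Both were also lost with scaling by total counts, as was that of Bmp7. With counts summed over all transcripts of a gene, Acvrl1, Bmp7, Inhbb, Id1 and Id4 were not called.

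The secreted regulators Grem1, Ltbp1 and Ltbp3 were lower in LV, while the means of Bmper (7.21 CPM against 4.92, edgeR adjusted p = 0.25) and Fstl1 (45.5 against 35.4, edgeR adjusted p = 0.12) were on the other side without passing the threshold. Grem1, a BMP antagonist, had no counts in either LV vehicle pool and stood at 1.03 and 0.828 CPM in the 4V vehicle pools. It was at least 6.27-fold higher in 4V, against a floor of 3 counts per library (0.148 CPM in LV). Its 4V pools held 14 and 9 counts, and it passed the filter on low counts through these alone. The edgeR adjusted p of 0.0066 is therefore no separate support. With DESeq2, or with a filter of a mean count above 10, it had no adjusted p. Without either 4V pool it did not pass the filter on low counts. After Cre-Tat it was at 0.0405 and 0.0455 CPM in LV and 1.19 and 0.848 in 4V, while in the constitutive model its 4V level ranged from 0 to 0.618 CPM. Ltbp1 and Ltbp3, which hold latent TGF-beta in the matrix, stood at 4.02 and 3.48 CPM in LV against 6.91 and 9.39 (log2 fold change -1.14, SE 0.25, edgeR adjusted p = 0.013), and at 79.9 and 84.1 against 109 and 119 (-0.51, SE 0.11, edgeR adjusted p = 0.018). Both were lower in both LV pools. Ltbp1 lost its call without 4V pool B (edgeR adjusted p = 0.15), and Ltbp3 without 4V pool A (0.05) or B (0.15).

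Smad9, a Smad of the BMP branch, stood at 9.49 and 11.4 CPM in LV and 18.4 and 18.5 in 4V (log2 fold change -0.85, SE 0.16, edgeR adjusted p = 0.0062), a call kept with each pool left out. The other Smads of this branch did not pass the threshold, with Smad1 at 8.67 and 9.97 CPM against 10.2 and 9.02 and Smad5 at 88.8 and 95.4 against 79.7 and 94. Those pools overlapped between ventricles, unlike those of Smad9.

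The Id targets were lower in LV, where Id3 stood at 55 and 58.6 CPM against 90 and 85.4 in 4V (log2 fold change -0.66, SE 0.12, edgeR adjusted p = 0.0038). Id1 stood at 30.3 and 27.6 CPM against 49.5 and 35.6 (-0.59, SE 0.16, edgeR adjusted p = 0.04), and Id4 at 38.1 and 34 against 57.9 and 47.9 (-0.59, SE 0.14, edgeR adjusted p = 0.021). Pools of Id1, Id3 and Id4 did not overlap, while Id2 stood at 19 and 18.8 CPM against 21.2 and 20.2 (-0.17, SE 0.14, edgeR adjusted p = 0.54). The call of Id3 was kept with each pool left out, whereas Id1 and Id4 lost theirs without LV pool B (edgeR adjusted p = 0.073 and 0.081) or 4V pool A (0.34 and 0.17). Tgfbi, a matrix protein induced by TGF-beta, stood apart from the Id genes, at 112 and 134 CPM in LV and 51.6 and 54.8 in 4V (1.18, SE 0.12, edgeR adjusted p = 7e-05), with LV pools far above 4V pools and the call kept with each pool left out. Tgfbi was at 111 to 169 CPM in the 4V pools of the constitutive model, which were sequenced apart.

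**Figure D5:**
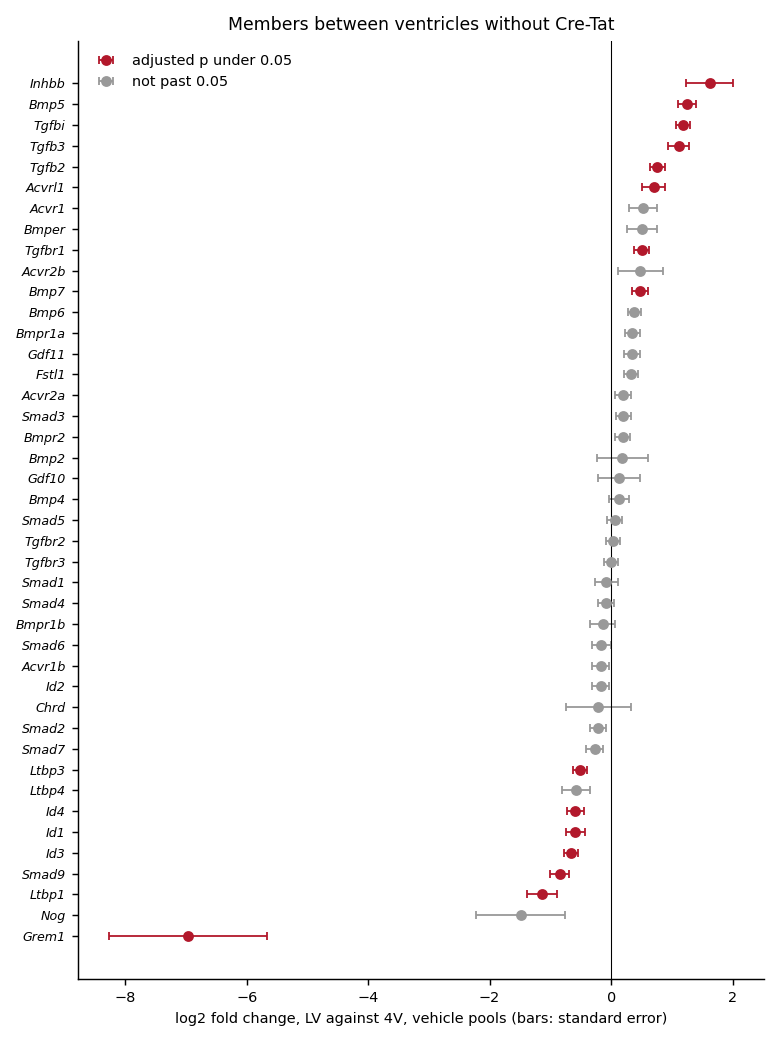
Log2 fold change of the 42 members tested between LV and 4V vehicle pools, with its standard error; red points have an edgeR adjusted p under 0.05. The 8 called members on the right are higher in LV and the 7 on the left higher in 4V, among which Grem1 has no counts in LV, so that its position depends on the prior count of the fit.

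Of 74 further genes of the pathway, 48 to 50 were tested in each comparison. After Cre-Tat, 3 of 50 were called in LV and 11 of 48 in 4V. In Otx2(+/AA) 0 of 49 were called. There 7 had an unadjusted p under 0.05, a threshold for which the share of all genes is not given, so that no excess is shown. In Otx2(+/-) 5 of 50 were called, and between ventricles 9 of 48, 4 higher and 5 lower in LV. Their share of calls in 4V after Cre-Tat was 22.9%, 6 higher and 5 lower, and in Otx2(+/-) it was 10%, 4 higher and 1 lower. These shares stand beside 21.4% and 11.9% of the members in the same comparisons and the background over all genes given above.

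Sostdc1, a secreted antagonist of BMP and Wnt ligands, fell in both ventricles after Cre-Tat, from 412 and 390 CPM to 189 and 220 in LV (log2 fold change -0.95, SE 0.16, edgeR adjusted p = 0.0055) and from 399 and 314 to 187 and 177 in 4V (-0.96, SE 0.15, edgeR adjusted p = 0.00034). Msx1, a homeobox gene known as a BMP target, rose in both, from 129 and 149 CPM to 234 and 253 in LV (0.83, SE 0.16, edgeR adjusted p = 0.012) and from 123 and 119 to 241 and 205 in 4V (0.89, SE 0.14, edgeR adjusted p = 0.00035). In these 4 comparisons the pools of the 2 groups lay well apart. In the constitutive model Sostdc1 stood at 418 and 510 CPM in wildtype against 404 and 467 in Otx2(+/-). Msx1 stood there at 140 and 172 CPM against 137 and 168, and pools overlapped for both genes.

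Tll1, a tolloid-like protease that cleaves the BMP antagonist chordin, went in opposite directions in the 2 models. It fell from 19.5 and 20.4 CPM to 11.3 and 11.9 in LV (log2 fold change -0.76, SE 0.17, edgeR adjusted p = 0.026) and from 10.3 and 9.11 to 5.13 and 4.84 in 4V after Cre-Tat (-0.96, SE 0.21, edgeR adjusted p = 0.0065). In Otx2(+/-) it rose from 10.7 and 9.5 CPM to 38.2 and 24.6 (1.64, SE 0.22, edgeR adjusted p = 0.0048). The 4V effects differed by -2.61 between the models (SE 0.30, edgeR adjusted p = 0.0011).

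In 4V after Cre-Tat the largest rise was that of Kcp, a secreted enhancer of BMP signalling (log2 fold change 1.38), and the largest fall that of the secreted protease Htra1 (-0.99), while Hey1, a target of Notch and BMP signals, rose (0.70) and Thbs1, whose product activates latent TGF-beta (-0.43), and the Smad corepressor gene Skil (-0.45) fell. In Otx2(+/-), Chrdl1, a chordin-like antagonist, rose from 0.314 and 0.618 CPM to 2.85 and 2.82 (2.60, SE 0.41, edgeR adjusted p = 0.012), Itgb6, an integrin that activates latent TGF-beta, fell from 17.2 and 16.2 to 8.69 and 8 (by 1.00 on the log2 scale, SE 0.15, edgeR adjusted p = 0.01), and the ubiquitin ligase gene Nedd4l rose (0.85). Between ventricles, the ligand gene Gdf7 stood at 1.89 and 0.302 CPM in LV and 24 and 26.5 in 4V (-4.53, SE 0.38, edgeR adjusted p = 1.4e-05). The 4V pools of Gdf7 were far above those of LV. Between the same pools Tll1 (1.00) and Thbs1 (0.72) were called higher in LV, and Nedd4l (-1.26), Hey1 (-0.87) and Skil (-0.42) lower.

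Of the 47 members, 22 were called in at least 1 of the 5 comparisons and 41 were tested in all of them. The share of all genes called in at least 1 is not given, so the 22 are not read as an excess among the members. Tgfb1 passed the filter on low counts in 3 comparisons and Grem1 in 2. The 21 members that were tested and never called were Bmp4, Tgfb1, Gdf10, Bmpr1a, Acvr1, Acvr1b, Bmpr2, Acvr2a, Acvr2b, Tgfbr2, Bmper, Nog, Chrd, Ltbp4, Smad1, Smad2, Smad3, Smad4, Smad5, Smad6 and Smad7. All type II receptors and all Smads other than Smad9 are among them. Bmp4, a BMP ligand, stood at 37.4 and 27.1 CPM in the LV vehicle pools and 22 and 24.2 after Cre-Tat (edgeR adjusted p = 0.26). In 4V it stood at 31.8 and 26 CPM against 22 and 21.1, and in the constitutive model at 42.9 and 29.2 in wildtype against 63.3 and 49.5 in Otx2(+/-), with an edgeR adjusted p of 0.11 in each. Groups did not overlap in these 3 comparisons, which with 2 pools a group does not show a change by itself. Tgfbr2, the type II receptor of TGF-beta, stayed within 156 to 196 CPM in all 14 pools.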

How the data were processed

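Mouse choroid plexus RNA was sequenced as 14 pools in 7 groups. Per the labels, the authors used a stranded kit after ribosomal RNA depletion (the study's methods name PolyA+ purification) and reads of 50 bases, with Bowtie 0.12.9, HTSeq 0.5.3 and DESeq 1.8.3 in their processing notes. The authors deposited raw counts per transcript. Of 95533 transcripts, 82807 matched GENCODE vM21 and held 89.46% of the counts, and each of the 33984 genes was given by its transcript with the most counts. The 2 technical runs of a pool were summed. The genes tested were therefore single transcripts, with 10558002 to 24833188 counts a pool.

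Groups of 2 pools were compared with edgeR 4.0.16 (quasi-likelihood test, TMM, filterByExpr, R 4.3.3), with p-values adjusted by Benjamini-Hochberg over the whole table and a threshold of 0.05. The fit was first tested on simulated counts with 200 changed genes, for Cre-Tat in 4V and for Otx2(+/-). It recovered 85% and 91% of 2-fold changes, but 31% of 1.5-fold changes in each. Of the genes called, 4.92% and 4.69% were false. The simulated spread was the same for all genes, and LV was not simulated. Alternatives were DESeq2 1.42.0, other scalings and filters, the pool letter as a block, a joint fit per run, summed transcripts, files as listed, and leaving out each pool. Labels call the pools biological replicates. The p-values set a difference between groups against the spread between pools, which is estimated in part over all genes. For the constitutive model, the study's methods do not make clear whether the duplicate pools hold different mice. An exact permutation test of 2 against 2 cannot go below p = 0.333 and was not used. Groups without overlap reach that p at best, so a lack of overlap does not show a change by itself. Its share over all genes is not given. Promoters came from RefSeq.

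Values of every pool are given for members past the threshold in at least 1 of the 5 comparisons of groups, for Bmp7 and Tgfb2 and for the member highest per kb in each role, and members that an alternative calls may be named. Of the further pathway genes, those called in at least 2 comparisons and the largest rise and fall of each are named, except for a result that is not reported here. The members, the lists and the tests were chosen with earlier results of these data known.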

Additional observations from a re-analysis of the deposited data

Results flagged for a closer look

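Bmp6 and Gdf11 differed between the constitutive mutants. The log2 difference of Otx2(+/-) from Otx2(+/AA) was -1.11 for Bmp6 (SE 0.14, edgeR adjusted p = 0.0011) and -0.87 for Gdf11 (SE 0.14, edgeR adjusted p = 0.0056), with both Otx2(+/-) pools below both Otx2(+/AA) pools.

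For Bmp6 and Bmpr1b the effect in 4V differed between the models. The effect of Cre-Tat minus that of Otx2(+/-) was 0.72 for Bmp6 (SE 0.17, edgeR adjusted p = 0.048) and -1.59 for Bmpr1b (SE 0.35, edgeR adjusted p = 0.041). Model, strain, injection and sequencing cannot be told apart. With 1 pool left out, Bmp6 was called in 0 of 8 fits and Bmpr1b in 2 of 8.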

How the results depend on the processing

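Each count of members called was recomputed under the alternatives. Shares of all genes called are in parentheses. With DESeq2 it was 2 for Cre-Tat in LV (3.58%), 8 in 4V (7.9%) and 8 for Otx2(+/-) (4.6%). It was 1 for Otx2(+/AA) (0.842%), 12 between ventricles (5.37%) and 4 for the difference between models (2.43%). Total counts gave 1 for Otx2(+/AA) (0.262%) and 1 for the difference between models (1.68%). No filter gave 2 for LV (4.01%), 3 for Otx2(+/AA) (1.67%) and 4 for the difference between models (2.56%). Sums over transcripts gave 3 for Otx2(+/-) (2.62%) and 0 for the difference between models (1.04%). A joint fit of all groups of a run gave 2 for LV (3.82%) and 9 between ventricles (4.61%). Leaving out each pool gave 1 to 3 for LV, 6 to 8 for 4V, 4 to 8 for Otx2(+/-), 0 to 1 for Otx2(+/AA), 7 to 15 between ventricles, 2 to 5 between the mutants and 0 to 2 between models. A lone pool left in a group is assumed to vary like the other group.

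With files taken as listed, members called were 27 for LV (44.9% of all genes called), 30 for 4V (58.8%), 14 between ventricles (32.6%), 12 for the ventricle difference (34.2%) and 18 for the model difference (30.4%). The 2 pools of a group are then runs of the same mixtures. Signs changed for Tgfb2 in LV (0.75), for Bmp6 (0.64), Tgfb2 (0.80), Gdf11 (0.52), Tgfbr3 (-0.44) and Id2 (-0.44) in 4V, and between ventricles for Id1 (0.59), Id3 (0.27) and Id4 (0.32). Between ventricles Tgfb3 (-0.11), Acvrl1 (-0.25) and Grem1 (0.42) also changed sign but were no longer called, and Tgfb2 was at -0.00 and not called. Of 438 values of called members under all alternatives, 343 kept direction and threshold, 82 missed the threshold and 13 were of the other sign or, for Tgfb2 between ventricles, at -0.00.

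The pool letter as a replicate block gave 1 member for LV (4.15% of all genes called), 14 for 4V (21.4%) and 19 for Otx2(+/-) (17.4%). It gave 3 for Otx2(+/AA) (3.79%), 19 between ventricles (15.7%), 3 between the mutants (3.61%) and 8 between models (6.84%). Same-letter pools correlated at -0.12 in LV, 0.10 in 4V, 0.29 for Otx2(+/-), 0.05 for Otx2(+/AA), 0.065 between ventricles and 0.067 between the mutants, and no label says that a letter marks shared mice or a shared batch. With 2 pairs a comparison, whether the letters pair the pools was not settled. Between ventricles, where the mice are the same set, the block added Bmp6, Bmpr1a, Fstl1 and Gdf11. Crossed pairing in LV, added after seeing the data, called 6 members and 1010 genes.

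Over all genes, 486 called in LV became 874 with no filter, 321 to 737 with a pool left out and 6709 as listed. In 4V, 1554 became 3113 with the block, 905 to 1665 and 8742. For Otx2(+/-), 515 became 2539 with the block and 402 to 881. For Otx2(+/AA), 50 became 122 with DESeq2, 390 with no filter, 549 with the block, 22 with summed transcripts, 18 with the joint fit and 35 to 382. Between ventricles, 1083 became 1840 with no filter, 2288 with the block, 717 with the joint fit, 400 to 1969 and 4718. Between the mutants, 393 became 248 with summed transcripts and 403 to 790. Between models, 252 became 627 with no filter, 1048 with the block, 166 with summed transcripts, 80 to 246 and 4688. Total counts shifted the median over all genes, on the log2 scale, by 0.17 in LV, 0.15 in 4V, 0.11 for Otx2(+/AA), -0.18 between ventricles and 0.12 between models. Higher and lower calls became 396 and 48 in LV (main 331 and 155), 1313 and 426 in 4V (829 and 725), 28 and 10 for Otx2(+/AA) (25 and 25) and 252 and 1222 between ventricles (504 and 579). The cause of these shifts was not tested.

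With 2 pools a group, a member that was not called is not shown to be at the same level in both groups. Members under 1 CPM rest on few counts.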
